A study of Mus musculus with 24 samples.

Results

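The comparison set 4 libraries of disomic (2N) offspring of choline-supplemented dams against 6 libraries of 2N offspring of dams on the control chow, taken by the genotype and treatment in their titles. These 10 are part of 24 libraries, the other 14 being from Ts65Dn mice, a model of Down syndrome with an additional copy of a segment of chromosome 16. Each library held RNA of about 500 neurons of 1 mouse, cut by laser from the medial septum and vertical diagonal band after rapid staining for choline acetyltransferase, at about 6 months of age. Supplemented 2N mice had dams eating chow with 5.0 g/kg choline chloride from embryonic day 0 to postnatal day 21, and control 2N mice had dams eating chow with 1.1 g/kg over the same time. Both groups ate the control chow after weaning, so the measurement came months after the diets had stopped differing. All pups of both groups were carried by a Ts65Dn dam mated to a C57Bl/6J Eicher × C3H/HeSnJ F1 male, and the mice were described as male. The litter of each mouse is not given. By their titles the groups hold 4 supplemented 2N, 6 control 2N, 8 supplemented Ts65Dn and 6 control Ts65Dn libraries, while 6 mice in each group are given in the series' design. The titles were used as they stand, so any library with a wrong title would change the 2N groups and the values below, and this was not tested.

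Cholinergic neurons of the septum and diagonal band send axons to the hippocampus and make acetylcholine from choline taken up at their terminals. They depend on nerve growth factor. Choline is also built into phosphatidylcholine through the CDP-choline pathway. After oxidation to betaine it passes methyl groups to the methionine cycle, which makes the S-adenosylmethionine used by DNA and histone methyltransferases.

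Total counts ran between 8232618 and 13443438 in supplemented 2N and between 7626880 and 13307831 in control 2N. The libraries did not separate by diet as a whole. Spearman's rho over all genes had a median of 0.770 between supplemented and control 2N libraries, 0.773 within supplemented 2N and 0.777 within control 2N. The captured cells were checked against their markers. Chat, the gene of choline acetyltransferase, had 37.3, 53.9, 0.561 and 10.7 CPM, counts scaled to a common library size, in supplemented 2N 1 to 4, and 10, 18.1, 7.76, 20.8, 0.799 and 21.6 CPM in control 2N 1 to 6. It was therefore under 1 CPM in supplemented 2N 3 and control 2N 5. RNA of other cells was present. The 15 oligodendrocyte markers summed to 2671 to 3593 CPM in supplemented 2N and 3241 to 4191 CPM in control 2N, and the 13 GABAergic markers summed to 1410 to 1852 CPM in supplemented 2N and 1179 to 1744 CPM in control 2N. The 24 cholinergic neuron genes summed to 1049 to 1524 CPM in supplemented 2N and 1054 to 1240 CPM in control 2N. Chat itself was a small part of that sum, with medians of 24.0 CPM in supplemented 2N and 14.1 CPM in control 2N. The GABAergic marker Gad1 had medians of 555 CPM in supplemented 2N and 492 CPM in control 2N. In such pooled material fewer cells of a type and less RNA per cell cannot be told apart. Supplemented 2N 2 held 164 counts of Xist, a transcript of the inactive X chromosome of females, against 0 in the other 9 2N libraries. The first part of the animal identifiers was 14, 15, 16 and 16 in supplemented 2N, while 2 control 2N libraries had 15 and 4 had 17. What this prefix stands for is not stated, and only prefix 15 held both diets.

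A single RNA passed the test across all genes, the microRNA gene Mir6236. It is shown here with its sequence because it is the only called difference. The mature miRNA below is the RefSeq entry (GRCm38.p6, plus strand, chr9:110281353-110281371) with its seed, bases 2 to 8, in capitals.
mmu-miR-6236: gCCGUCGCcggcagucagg
The gene overlaps no other gene of GENCODE M21. The nearest listed neighbours are Gm42775, a lincRNA 7543 bases away, and Cspg5, a protein-coding gene 18711 bases away. The libraries were made from total RNA, so the counts of this gene do not separate the mature form from longer RNA.

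Mir6236 rose 4.51-fold in neurons of supplemented 2N mice. It had 2397, 1124, 1555 and 1173 CPM in supplemented 2N 1 to 4, and 271, 602, 163, 268, 466 and 311 CPM in control 2N 1 to 6. The lowest supplemented library lay well above the highest control library. The log2 fold change was 2.17 (SE 0.35, edgeR's quasi-likelihood test, Benjamini-Hochberg adjusted p = 0.00413). Of 19967 tested genes this was 0.00501% called, 1 higher and 0 lower. The diet effect differed from that in Ts65Dn mice, where Mir6236 averaged 949 CPM on the supplemented and 1758 CPM on the control diet, a log2 change of −0.89. The difference between the 2 diet effects was 3.06 on the log2 scale (adjusted p = 0.000706), again the sole gene called (0.00501%). That call was lost with the robust fit (adjusted p = 0.168), with the mitochondrial rRNA percent as a covariate (2.49, adjusted p = 0.0677), with limma-voom (adjusted p = 0.0607) and on log2(TPM + 1) (adjusted p = 0.206), and it held with each 2N library left out. Control 2N was the lowest of the 4 groups, with no library above 602 CPM. The call was lost without supplemented 2N 1 (log2 fold change 1.89, adjusted p = 0.0778), with edgeR's robust fit (adjusted p = 0.536), with limma-voom (adjusted p = 0.0948) and on log2(TPM + 1) (adjusted p = 0.254). With the identifier prefix as a factor the change was 2.19 (adjusted p = 0.0986). Within prefix 15 the only supplemented library had 1124 CPM against 271 and 602 CPM in the control libraries. That library is supplemented 2N 2, which held Xist counts.

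**Figure D1:**
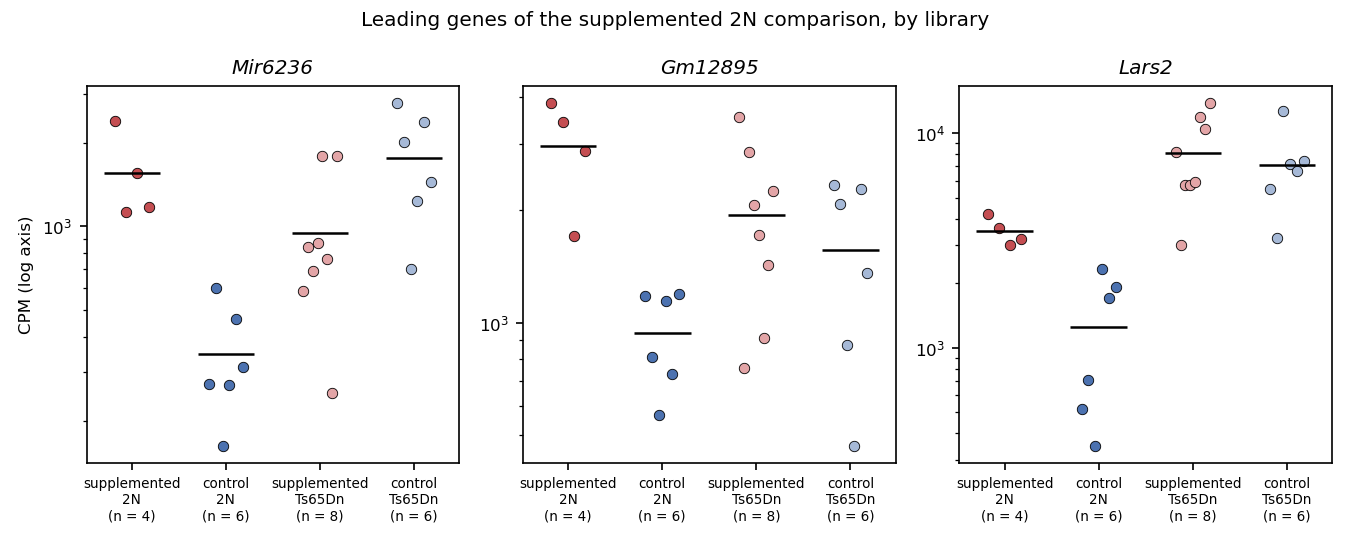
CPM (log axis) of Mir6236, Gm12895 and Lars2 in each library of the 4 groups, with the group mean as a bar. For all 3 genes the 4 supplemented 2N libraries lie above the 6 control 2N libraries, and for Mir6236 the Ts65Dn groups stand in the opposite order.

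Gm12895 and Lars2 had the next smallest p-values across all genes and did not pass. Lars2, the mitochondrial leucyl-tRNA synthetase, had 4185, 3632, 3027 and 3217 CPM in supplemented 2N and 519, 707, 350, 2319, 1710 and 1910 CPM in control 2N. The groups did not overlap, but control 2N fell into a lower and a higher set of 3 libraries each. The log2 fold change was 1.49 (SE 0.34, adjusted p = 0.52). Lars2 passed with the identifier prefix as a factor (2.14, adjusted p = 0.00076) and with the mitochondrial rRNA percent as a covariate (1.59, adjusted p = 0.0494). Lars2 lay higher still in both Ts65Dn groups, at 8080 CPM on the supplemented and 7115 CPM on the control diet.

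Gm12895, a processed pseudogene on chromosome 4 named here after its values were seen, averaged 2969 ± 935 CPM in supplemented 2N and 938 ± 271 CPM in control 2N (SD, n = 4 and 6). Its log2 fold change was 1.66 (SE 0.32, adjusted p = 0.0645). Its transcript is identical to that of Gm12896 over 224 of 226 bases, and the deposited counts split between them unevenly: Gm12896 averaged 239 CPM in supplemented 2N and 612 CPM in control 2N. Summed, the copies had 3900, 3591, 2415 and 2930 CPM in supplemented 2N and 1917, 1620, 765, 1144, 1455 and 2394 CPM in control 2N. The groups then only just failed to overlap, and the log2 fold change was 1.05 (SE 0.24, adjusted p = 0.491).

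The number of genes called depended on the test: DESeq2 called 35 genes higher and 177 lower, and edgeR's robust fit called 0. Without supplemented 2N 2, which held Xist counts, edgeR called 2, and without the 2N and Ts65Dn libraries under 1 CPM of Chat it called 1. Across all tested genes the signs of the diet contrast in 2N were close to balanced. The median log2 fold change was −0.06 and 53.2% of genes were negative. At an unadjusted p under 0.05 they were not, with 372 genes higher (1.86%) and 1010 lower (5.06%), 6.92% in all. All 4 supplemented libraries lay above all 6 control libraries for 119 genes (0.596%) and below them for 148 (0.741%). The measurement was coarse for most genes. Among genes at 100 CPM or more the 95% interval reached a median of 0.60 log2 units to either side, and 80.5% of intervals stayed within a 2-fold change. Between 10 and 100 CPM the median reach was 1.37, and 8.41% of intervals stayed within 2-fold. Below 10 CPM none did.

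**Figure D2:**
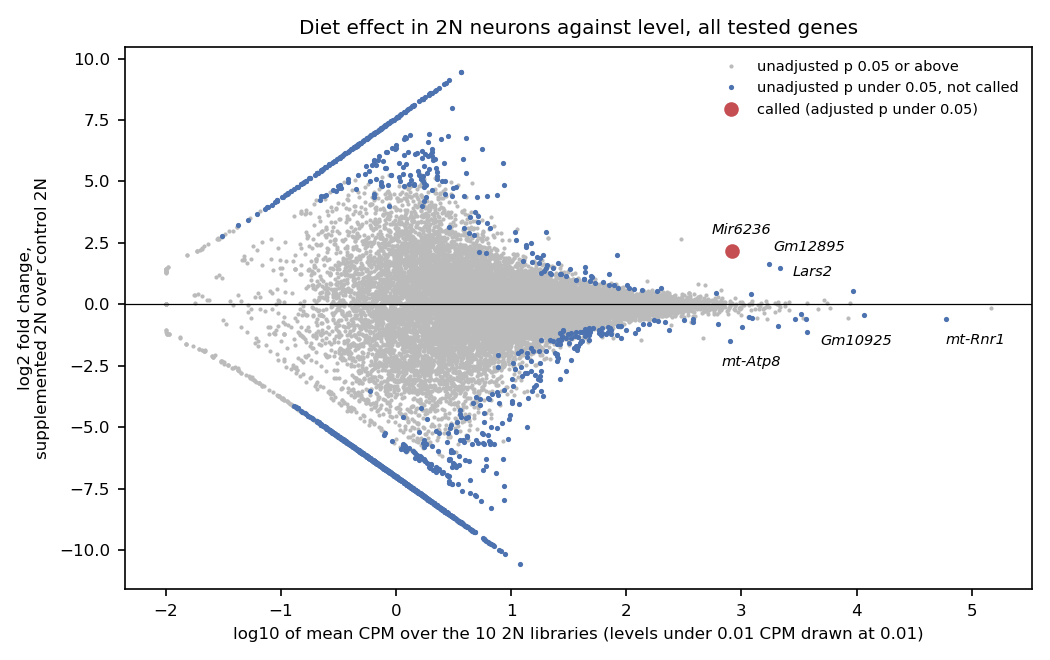
Log2 fold change of supplemented over control 2N for all 19967 tested genes against their mean CPM (log10). Mir6236 is the only called gene, at a log2 fold change of 2.17, and the spread widens toward low levels.

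The genes with the next smallest p-values among those averaging at least 5 CPM are given as values, since none passed (adjusted p 0.52 to 0.566). On the higher side, Iars2, the mitochondrial isoleucyl-tRNA synthetase, averaged 68.9 ± 26.6 CPM in supplemented 2N and 27.4 ± 10.8 CPM in control 2N (SD). Mrpl10, a mitochondrial ribosomal protein, had 29.3 ± 9.34 CPM in supplemented 2N and 5.12 ± 3.90 CPM in control 2N. Mrpl10 was separated between the diets, and Iars2 overlapped through supplemented 2N 2 at 33.0 CPM.

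Cdon, a cell-surface co-receptor for Hedgehog ligands, had 9.82 to 16.2 CPM in supplemented 2N and 0 to 1.73 CPM in control 2N, so that the groups did not overlap. Sh3kbp1, an adaptor protein of receptor endocytosis, had 74.2 ± 12.7 CPM in supplemented 2N and 34.0 ± 13.1 CPM in control 2N, also without overlap. Klhl26 (34.4 ± 14.6 CPM in supplemented 2N, 11.2 ± 5.37 CPM in control 2N) showed the same separation. Parg, which removes poly(ADP-ribose) from proteins, Kdm2b, a histone demethylase, and Acta2, the actin of smooth muscle, had log2 fold changes of 1.16, 1.43 and 1.52, each with overlapping groups.

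On the lower side the separated genes were low in level. St18, a zinc-finger transcription factor, had 2.71, 0.933, 0 and 5.31 CPM in supplemented 2N and 13.5 to 51.8 CPM in control 2N. Mapk7, the kinase ERK5, had 0 to 4.25 CPM in supplemented 2N and 12.7 to 36.2 CPM in control 2N. Pcdh20, a protocadherin, had 3.77 to 10.2 CPM in supplemented 2N and 11.8 to 60.5 CPM in control 2N. None of these 3 overlapped between the diets.

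Itgav, the integrin alpha V chain, was likewise apart, at 14.4 ± 4.60 CPM in supplemented 2N and 49.5 ± 19.7 CPM in control 2N. Pex3, needed to form peroxisomes, had at most 0.467 CPM in supplemented 2N and 1.59 to 30.4 CPM in control 2N. Asb4, a substrate adaptor of a ubiquitin ligase, had no counts in any supplemented 2N library and 0.172 to 27.8 CPM in control 2N. Zbtb18, a transcriptional repressor of cortical neuron development, overlapped between the diets, with 10 ± 6.98 CPM in supplemented 2N and 48.1 ± 35.3 CPM in control 2N. Pde6a, a phosphodiesterase known from photoreceptors, was at 0 in all supplemented 2N libraries and in control 2N 3 and 6.

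The most abundant of the lower genes was Cdr1. It had 487, 827, 470 and 875 CPM in supplemented 2N and 1381, 1668, 1349, 965, 1345 and 781 CPM in control 2N. Only control 2N 6 lay within the supplemented range. The log2 fold change was −0.91 (SE 0.27, adjusted p = 0.566). Cdr1 lies on the strand opposite to the circular RNA Cdr1as, and how the counting treated strand is not stated, so the counts may belong to either.

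Genes that handle choline were examined next, ordered by their step. Of 67 listed genes, 58 were tested, none was called, and 1 had an unadjusted p under 0.05 (1.72%, against 6.92% of all genes). Their median log2 fold change was −0.09, beside −0.06 over all genes. The intervals of 3 of the 58 stayed within a 2-fold change, so most differences of that size were not detectable here.

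Among choline transporters, Slc44a1, the choline transporter-like protein of most tissues, had 66.3 CPM in supplemented 2N and 61.6 CPM in control 2N (log2 fold change 0.11, 95% interval −0.80 to 1.01). Slc44a2 had 26.9 CPM in supplemented 2N and 14.7 CPM in control 2N, with an interval of −0.51 to 2.25. Flvcr1, more recently described as a choline importer, had 9.63 CPM in supplemented 2N and 10.7 CPM in control 2N.

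In the CDP-choline pathway 5 of 6 genes were negative. Chka, the choline kinase that phosphorylates choline, came nearest to a difference, with 36.5, 73.3, 43.2 and 55.4 CPM in supplemented 2N and 66.3, 131, 58.5, 98.1, 86.3 and 71.8 CPM in control 2N. The groups overlapped, and the log2 fold change was −0.71 (95% interval −1.53 to 0.10). Chpt1, which makes phosphatidylcholine in the last step, had 22.1 CPM in supplemented 2N and 39.0 CPM in control 2N (interval −2.35 to 0.70). Pcyt1a, the rate-limiting enzyme of the pathway, had 35.4 CPM in supplemented 2N and 23.3 CPM in control 2N (interval −0.72 to 1.93). Pemt, which methylates phosphatidylethanolamine to phosphatidylcholine, was near the limit of detection at 2.04 CPM in supplemented 2N and 2.16 CPM in control 2N. It had no counts in 2 supplemented and 4 control libraries.

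In the ethanolamine branch 6 of 7 genes were negative, with a median of −0.22. The largest in level, Etnk1, ethanolamine kinase, had 197 CPM in supplemented 2N and 224 CPM in control 2N, and its interval of −0.81 to 0.44 stayed within 2-fold. Of 11 genes listed for choline release, Smpd1 and Smpd2, sphingomyelinases, had every supplemented library below every control library. Over the whole choline list this held for 4 of 58 tested genes, against 0.741% of all genes, and 0 were separated upward. Smpd1 averaged 22.8 CPM in supplemented 2N and 34.2 CPM in control 2N, with a log2 fold change of −0.58 (unadjusted p = 0.248).

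For the oxidation of choline to betaine, Chdh, choline dehydrogenase, had 5.63 CPM in supplemented 2N and 11.9 CPM in control 2N. Bhmt, Bhmt2 and Dmgdh, the next enzymes of that route, were too low to be tested. In the methionine cycle 6 of 9 genes were positive, with a median of 0.25. Ahcyl1, a relative of the enzyme that hydrolyses S-adenosylhomocysteine, had 169 CPM in supplemented 2N and 130 CPM in control 2N (interval −0.20 to 0.95). Mat2a, which makes S-adenosylmethionine, had 33.6 CPM in supplemented 2N and 45.1 CPM in control 2N (interval −1.44 to 0.59).

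The single gene of this list under an unadjusted p of 0.05 belonged to the folate cycle. Slc25a32, the mitochondrial folate carrier, had 0, 2.07, 0 and 2.00 CPM in supplemented 2N and 13.8, 21.8, 6.04, 6.96, 44.2 and 5.68 CPM in control 2N. The groups did not overlap. The log2 fold change was −3.99 (SE 1.66, unadjusted p = 0.0206, adjusted p = 0.566). Mthfd2l, a mitochondrial folate dehydrogenase, was separated in the same direction, at 3.73 CPM in supplemented 2N and 16.9 CPM in control 2N.

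**Figure D3:**
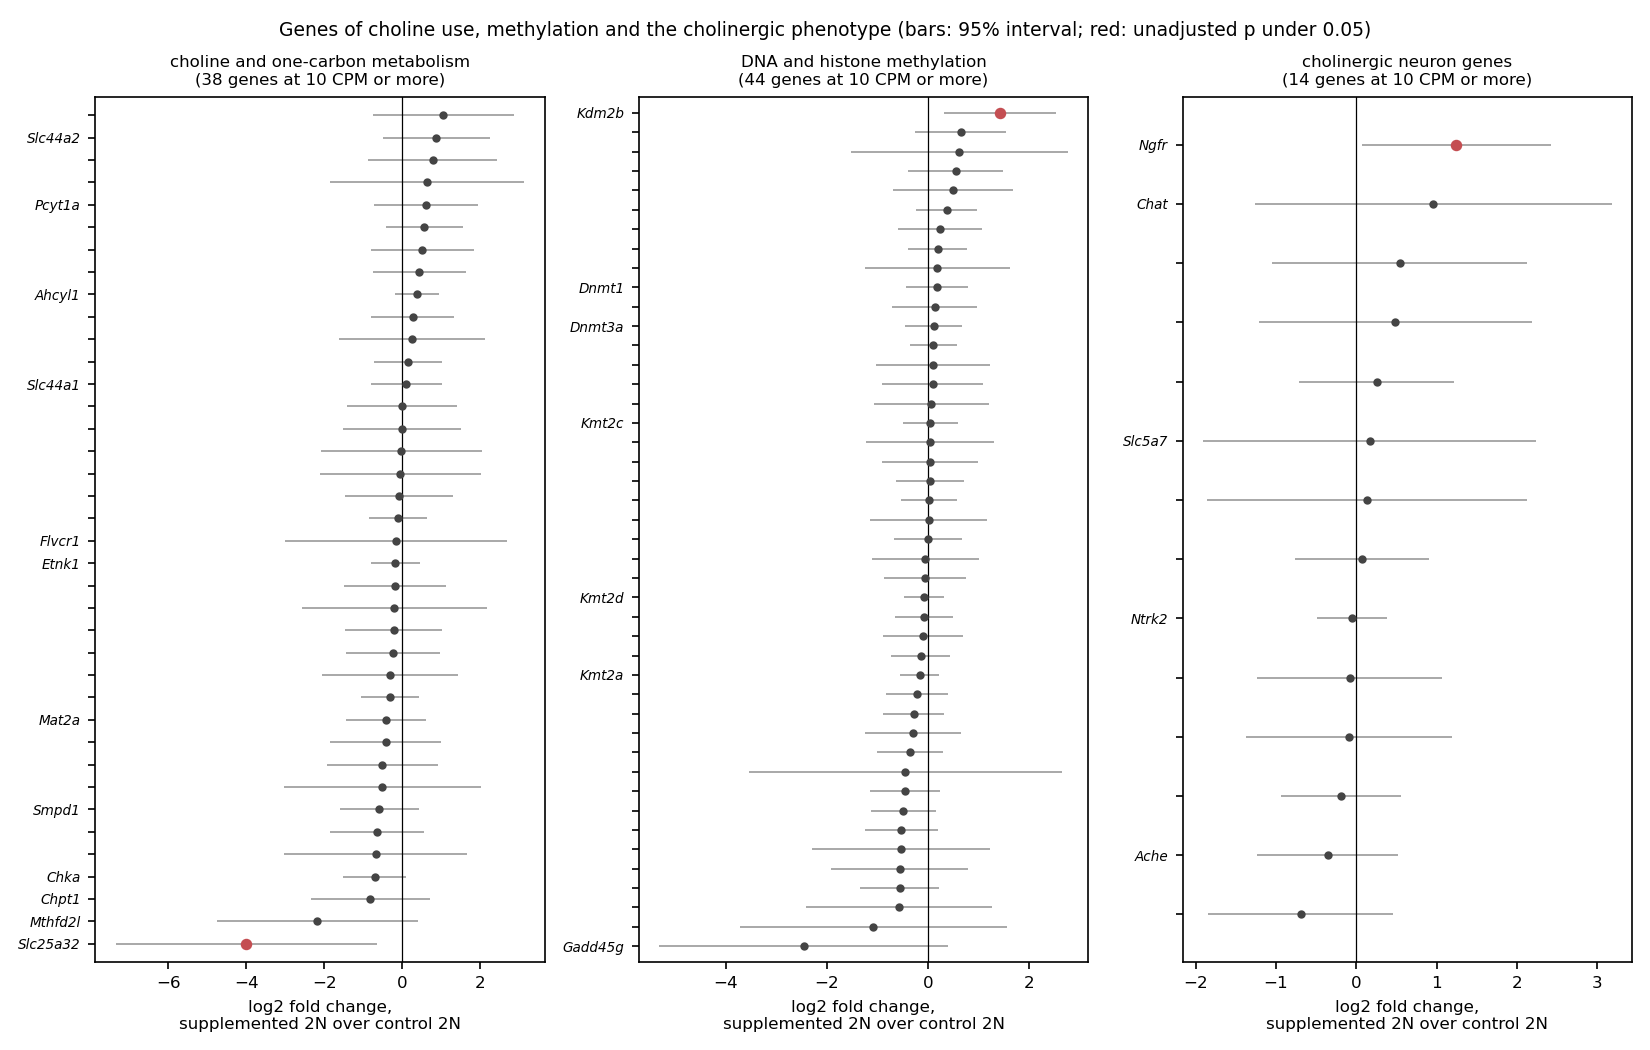
Log2 fold change of supplemented over control 2N with 95% intervals for the genes of 3 lists that average at least 10 CPM, with the genes described in the text labelled. In the choline list 37 of 38 intervals cross 0, in the methylation list 43 of 44 and in the cholinergic list 13 of 14; the exceptions are Slc25a32, Kdm2b and Ngfr.

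The enzymes that use the methyl groups were measured more closely. Of 54 genes of DNA and histone methylation, all tested, 19 had intervals within 2-fold, the median was 0.03, none was called, and 2 had an unadjusted p under 0.05 (3.70%). Dnmt3a, the main de novo DNA methyltransferase of mature neurons, had 186 CPM in supplemented 2N and 172 CPM in control 2N (log2 fold change 0.11, interval −0.45 to 0.67). Dnmt1, the maintenance methyltransferase, had 94.1 CPM in supplemented 2N and 83.5 CPM in control 2N (0.17, interval −0.44 to 0.78). These 95% intervals stay within 2-fold in either direction, and the sign of each was not stable: Dnmt1 was −0.08 with the identifier prefix as a factor, and Dnmt3a was −0.02 on the TPM scale.

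Among histone enzymes, Kmt2a, Kmt2c and Kmt2d, histone methyltransferases of active promoters and enhancers, had log2 fold changes of −0.17, 0.05 and −0.07 with intervals within 2-fold. The 2 genes of this list at unadjusted p under 0.05 were both higher. Kdm2b, a histone demethylase that binds unmethylated CpG islands, had 102, 19.6, 54.5 and 33.7 CPM in supplemented 2N and 27.8, 13.2, 27, 25.5, 4.13 and 19.1 CPM in control 2N. Its groups overlapped (log2 fold change 1.43, SE 0.55, adjusted p = 0.566). Uhrf1, which guides Dnmt1, rested on supplemented 2N 4 alone, with 6.00 CPM there and at most 0.107 CPM elsewhere. Gadd45g, a DNA damage response gene tied to demethylation, had 3.63 CPM in supplemented 2N and 20.1 CPM in control 2N without overlap (unadjusted p = 0.0891).

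For the cholinergic phenotype itself 24 of 25 listed genes were tested, none was called, and the median was 0.15. Ngfr, the p75 neurotrophin receptor that marks these neurons in the basal forebrain, was the single gene under an unadjusted p of 0.05. It had 56.9, 202, 94.4 and 81.3 CPM in supplemented 2N and 24.8, 64.3, 26.0, 75.4, 51.2 and 32.9 CPM in control 2N. The groups overlapped through supplemented 2N 1, and the log2 fold change was 1.25 (SE 0.59, adjusted p = 0.656). In Ts65Dn mice the change of Ngfr was 1.5 between other libraries.

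The acetylcholine genes varied too much between libraries to bound. Chat averaged 25.6 ± 24.4 CPM in supplemented 2N and 13.2 ± 8.30 CPM in control 2N (SD), with an interval of −1.26 to 3.18. Slc18a3, the vesicular acetylcholine transporter, had 5.00, 29.1, 5.61 and 8.39 CPM in supplemented 2N and 0.585 to 11.6 CPM in control 2N. Slc5a7, which takes choline up into the terminal, had 25.5 ± 15.3 CPM in supplemented 2N and 22.7 ± 14.1 CPM in control 2N. By contrast, Ntrk2, the receptor of BDNF, was bounded within 2-fold, at 496 CPM in supplemented 2N and 516 CPM in control 2N (interval −0.49 to 0.38). Ache, acetylcholinesterase, had 81.2 CPM in supplemented 2N and 104 CPM in control 2N (interval −1.23 to 0.53).

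The mRNAs of the mitochondrial genome averaged lower in supplemented 2N, without passing adjustment gene by gene or as a share of counts. The 13 mitochondrially encoded mRNAs code for subunits of complexes I, III, IV and V of the respiratory chain. Several have nuclear pseudogene copies of identical or nearly identical sequence among which the deposited counts are split. Gm10925, for example, is identical to mt-Atp6 over its 678 bases and held nearly all of their joint counts. Counts of 8 copies, 5 of them identical and 3 at 97.6% to 99.8% identity, were therefore added to their mitochondrial genes, a step chosen after seeing the data.

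So summed, mitochondrial mRNA took 2.44%, 1.76%, 3.17% and 1.91% of counts in supplemented 2N 1 to 4, and 3.46%, 3.45%, 3.99%, 4.06%, 3.28% and 2.18% in control 2N 1 to 6. Control 2N 6 alone lay within the supplemented range. The means were 2.32% ± 0.638 in supplemented 2N and 3.4% ± 0.677 in control 2N (SD, n = 4 and 6, exact permutation test over 210 splits, two-sided p = 0.0476, 0.131 adjusted over 5 library measures, smallest p possible 0.0048). Leaving out 1 library at a time gave differences of −1.37 to −0.897 percentage points, with adjusted exact permutation p of 0.0198 to 0.268. The lowest p came without control 2N 6, the library inside the supplemented range, and is no support for a difference. The mitochondrial rRNAs took 20.3% ± 1.94 of counts in supplemented 2N and 22.8% ± 2.44 in control 2N (exact permutation p = 0.143).

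Gene by gene, 13 of 13 mRNAs had a negative log2 fold change, with a median of −0.58, and 6 of 13 had an unadjusted p under 0.05 (5.06% of all genes did so in that direction). Mt-Atp8, a subunit of ATP synthase, was the furthest, with 276, 263, 801 and 204 CPM in supplemented 2N and 1140, 1103, 1341, 1543, 1010 and 327 CPM in control 2N. Its log2 fold change was −1.48 (SE 0.45, adjusted p = 0.561), and supplemented 2N 3 and control 2N 6 each lay nearer to the other diet. Mt-Atp6 with Gm10925 averaged 2195 CPM in supplemented 2N and 4784 CPM in control 2N (−1.12, SE 0.39). The complex I genes mt-Nd4 and mt-Nd5 were at −0.87 and −0.57, mt-Cytb of complex III at −0.60, and mt-Co1, mt-Co2 and mt-Co3 of complex IV at −0.43, −0.51 and −0.43.

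In Ts65Dn mice the same 13 mRNAs all had positive values, with a median of 0.98. With copies summed, mitochondrial mRNA took 1.99% to 3.55% of counts in supplemented Ts65Dn and 0.666% to 3.10% in control Ts65Dn, so those groups overlapped. The lowest were control Ts65Dn 1 and 3, at 0.666% and 0.793%. Mitochondrial rRNA averaged 30.7% of counts in supplemented Ts65Dn and 20.2% in control Ts65Dn. The difference between the diet effects of the genotypes had an unadjusted p under 0.05 for 13 of 13 genes (8.43% of all genes, and 5.78% in that direction) and passed adjustment for 0. The nearest was mt-Co3, with a log2 difference of −1.88 (SE 0.37, adjusted p = 0.0613). These genes share 1 primary transcript per strand and are not independent of each other. The rRNA of the small mitochondrial subunit went with them: mt-Rnr1 averaged 45885 ± 13429 CPM in supplemented 2N and 68926 ± 11664 CPM in control 2N (SD), a log2 fold change of −0.59 (unadjusted p = 0.0188). The large-subunit rRNA mt-Rnr2 did not, at 138931 ± 16029 CPM in supplemented 2N and 151551 ± 25700 CPM in control 2N (−0.13, unadjusted p = 0.618).

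**Figure D4:**
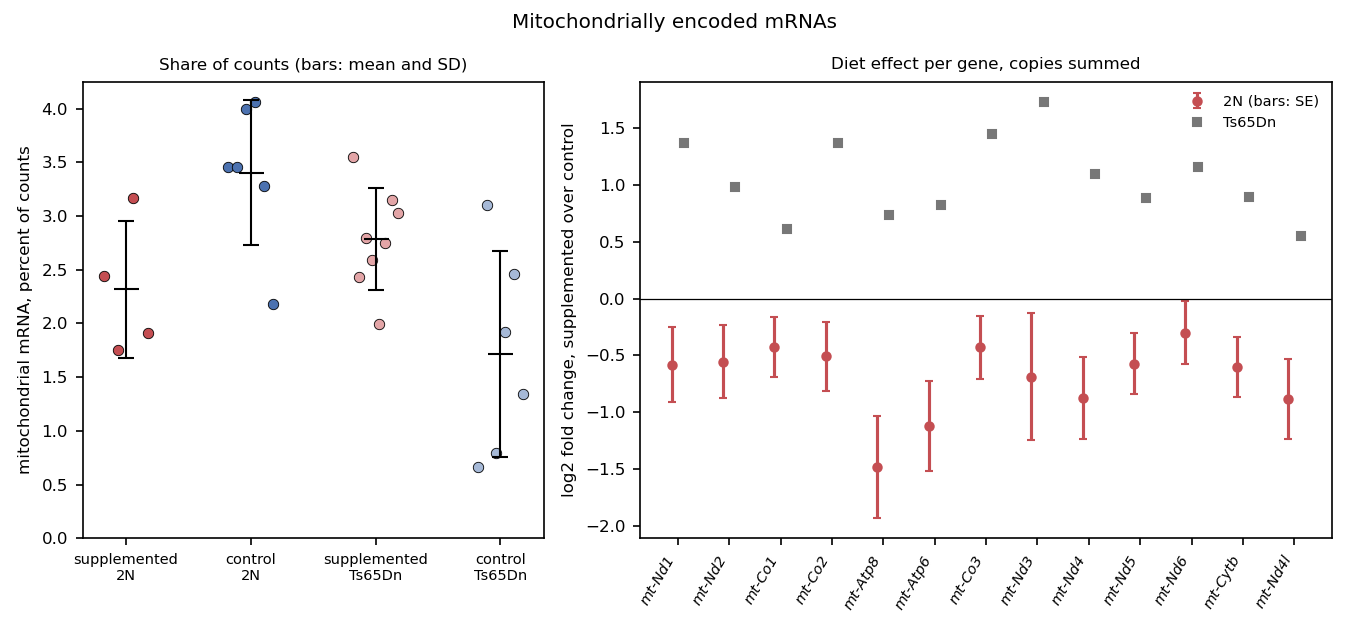
Left, percent of counts in mitochondrially encoded mRNA with copies summed, per library of the 4 groups with mean and SD; right, log2 fold change of supplemented over control for each mRNA in 2N (with SE) and in Ts65Dn (no error drawn). All 13 genes are below 0 in 2N and above 0 in Ts65Dn, and 1 control 2N library lies at 2.18%, among the supplemented ones.

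The copy Gm29216 is shown because nearly identical sequence had very different counts between libraries, and it was named after its values were seen. Of its 492 bases, 483 align to mt-Co1 with 1 differing base, A1066T, where position 1066 is counted from 1 at the 5′ end of the mt-Co1 transcript. The stretch from 3 bases before the difference is shown for both, with that base in capitals. Whether this base decides how reads were assigned was not tested.
mt-Co1: ggaAttgttttatccaactcatcccttg
Gm29216: ggaTttgttttatccaactcatcccttg
Gm29216 had 721, 532, 674 and 507 CPM in supplemented 2N 1 to 4, and 0 in control 2N 1 to 5 but 583 CPM in control 2N 6. Control 2N 6 was thus in the supplemented range for Gm29216 as well as for the mitochondrial mRNA share. Gm29216 did not pass in the test across genes (log2 fold change 2.65, SE 1.36, adjusted p = 0.769). Without control 2N 6 every control library is at 0, so no test of that subset is given.

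Respiratory chain genes of the nucleus showed no such shift in their median. Of 77 tested genes 35 were negative, the median was 0.13, and 3 had an unadjusted p under 0.05 (3.90%). The intervals of 7 of the 77 stayed within a 2-fold change, so most single genes were not bounded. Ndufb6, a complex I subunit, had 4.67 to 20.5 CPM in supplemented 2N and 0 to 2.57 CPM in control 2N without overlap, and Ndufa4 averaged 2.99 CPM in supplemented 2N and 15.4 CPM in control 2N. The 78 cytosolic ribosomal protein genes had a median of −0.13. Of these, Rpl41 was at 14.8 ± 4.30 CPM in supplemented 2N and 43.7 ± 10.5 CPM in control 2N without overlap (adjusted p = 0.566).

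Most lists of neuronal transmission had medians near that of all genes (−0.06), but immediate early genes (−0.80) and GABA receptors (−0.38) lay lower. Of 27 immediate early genes, which neurons switch on within minutes of firing, 22 were negative, with a median of −0.80 (−0.83 to −0.33 with 1 library left out, nearest 0 without control 2N 4), and 1 (Ier2) had an unadjusted p under 0.05. Egr1 had 17.7 ± 22.6 CPM in supplemented 2N and 31.4 ± 12.1 CPM in control 2N, Arc 22.3 ± 21.8 CPM in supplemented 2N and 35.8 ± 10.5 CPM in control 2N. The summed list ran between 224 and 410 CPM in supplemented 2N and between 315 and 731 CPM in control 2N, so the groups overlapped. In Ts65Dn the median was −0.95, with 25 of 27 negative. Nr4a2 was at 32.7 and 43.5 CPM in control 2N 3 and 4 and at most 13.0 CPM in the other 8 libraries. Its log2 fold change of −3.69 turned to 1.01 with the identifier prefix as a factor.

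Markers of glutamatergic neurons lay on the same side. Their 9 genes had a median of −1.04 (−1.58 without supplemented 2N 1 and −0.61 without control 2N 4). Of these, 7 were negative and 2 positive, the highest at a log2 fold change of 2.61. Neurod2, Neurod6 and Camk2a were lower at an unadjusted p under 0.05 (33.3%, against 5.06% of all genes in that direction). Camk2a had 367 and 678 CPM in control 2N 3 and 4 and at most 200 CPM in the other control 2N libraries. The summed list ran between 187 and 375 CPM in supplemented 2N and between 196 and 896 CPM in control 2N. The defining marker Slc17a7 was at 0 in 3 of the 10 libraries and reached 15.6 CPM in supplemented 2N and 92.1 CPM in control 2N. Neurod2 had at most 0.104 CPM in supplemented 2N, and in control 2N it had 16.2 and 15.0 CPM in replicates 3 and 4 and at most 1.27 CPM in the others. The part of these cells in the values of other genes was not tested.

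GABA receptor genes were negative in 11 of 15 cases, with a median of −0.38, and their sum ran between 1596 and 1856 CPM in supplemented 2N and between 1738 and 2102 CPM in control 2N. Gabrd, an extrasynaptic subunit, had no counts in supplemented 2N or in control 2N 2, 5 and 6. Its mean of 1.75 CPM in control 2N rested mostly on replicates 3 and 4, at 3.71 and 6.10 CPM. Of 47 voltage-gated channel genes none had an unadjusted p under 0.05, and the median was −0.09. Calcium channel genes were negative in 13 of 15 cases and sodium channel genes in 7 of 8, with medians of −0.27 and −0.23.

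Among 20 dense-core granule genes, Chgb, chromogranin B of peptide-storing granules, had 307, 240, 318 and 230 CPM in supplemented 2N and 506, 368, 429, 612, 479 and 316 CPM in control 2N. Only control 2N 6 fell within the supplemented range. The log2 fold change was −0.72 (SE 0.25, unadjusted p = 0.00521, adjusted p = 0.566). In Ts65Dn, Chgb was called as lower on the supplemented diet, at −1.0 (adjusted p = 0.0154), and the 2 effects were not shown to differ (unadjusted p of the difference 0.374).

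Genes of the vesicle cycle and the cytoskeleton were mostly bounded within 2-fold. Of 47 genes of the synaptic vesicle cycle 32 had intervals within 2-fold, the median was 0.02, and 1 (Ap2b1, an adaptor of endocytosis) had an unadjusted p under 0.05. Of 43 genes of the cytoskeleton and axonal transport 30 were within 2-fold and 0 had an unadjusted p under 0.05. Of 31 glutamate receptor genes 10 were within 2-fold, with a median of 0.01. The lists of endosome and lysosome, autophagy, proteasome, chaperone and interferon response genes held no gene under an unadjusted p of 0.05. Their medians were −0.01, −0.02, −0.17, −0.08 and −0.26. Most of their genes were not bounded. In the same order, intervals within 2-fold numbered 14 of 54, 8 of 28, 3 of 32, 18 of 40 and 1 of 19. The 44 sterol and fatty acid genes had a median of −0.03, and Acly, ATP citrate lyase, which makes acetyl-CoA from citrate, had 256 CPM in supplemented 2N and 160 CPM in control 2N (unadjusted p = 0.0368). Neurotrophin genes had a median of 0.05, acetylcholine receptors 0.26, postsynaptic scaffolds −0.09, antioxidant enzymes −0.03, and small nucleolar and other short RNAs −0.09. The last list, with 12 tested genes, also holds Lars2, which is protein-coding, and Mir6236, the called gene. These 2 were its only genes under an unadjusted p of 0.05 (16.7%, against 6.92% of all genes). Of 28 amyloid and tau genes 20 were negative, with a median of −0.13.

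**Figure D5:**
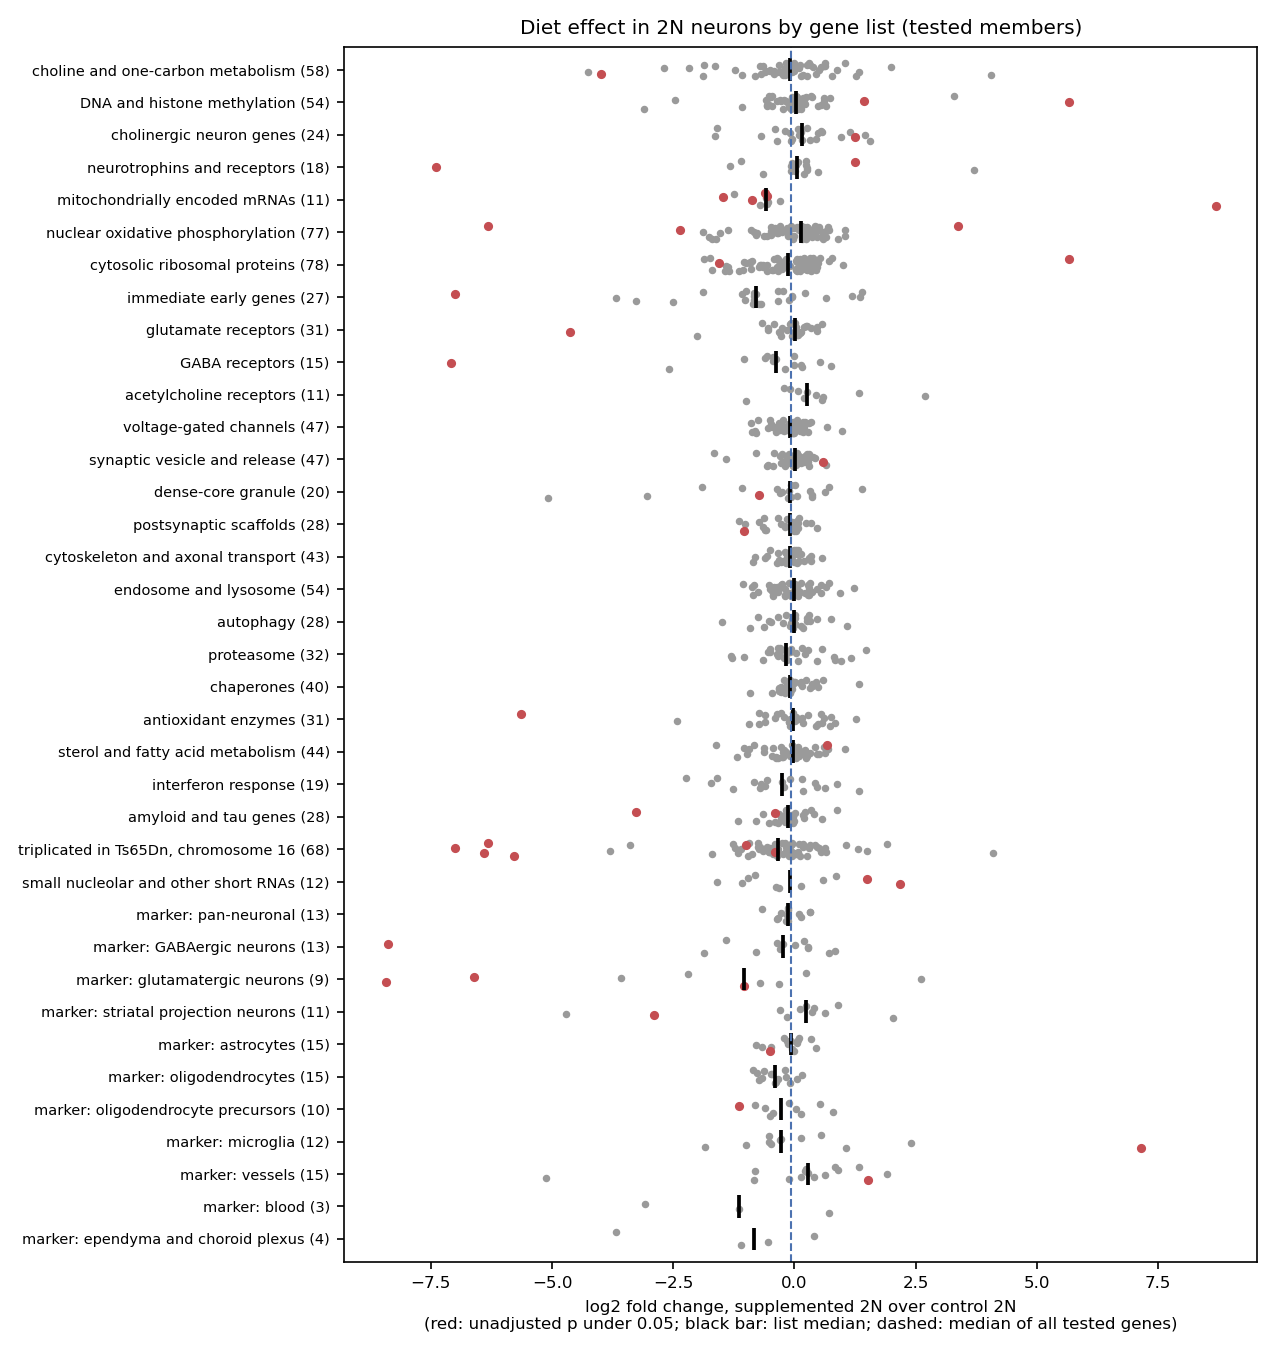
Log2 fold change of supplemented over control 2N for the tested members of each gene list (number in brackets), with the list median as a black bar and the median of all genes dashed. Medians furthest below that of all genes (−0.06) are those of blood (−1.14), glutamatergic (−1.04) and ependyma (−0.83) markers, immediate early genes (−0.80) and mitochondrial mRNAs (−0.58), of which the blood and ependyma lists hold 3 and 4 genes.

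Genes that Ts65Dn mice carry in an additional copy on chromosome 16 are present at the usual dose in both groups here. Of 68 tested (Atp5o with 2 identifiers), 48 were negative, the median was −0.34, and 6 had an unadjusted p under 0.05, all lower (8.82%, against 5.06% of all genes in that direction). The summed list ran between 6646 and 7886 CPM in supplemented 2N and between 6865 and 10846 CPM in control 2N. Paxbp1, a PAX-binding protein, had 114, 82.2, 48.8 and 70.7 CPM in supplemented 2N and 241, 226, 176, 113, 139 and 53.2 CPM in control 2N (log2 fold change −1.0, SE 0.34, adjusted p = 0.566). App, the amyloid precursor protein, had 3202, 2205, 3130 and 2595 CPM in supplemented 2N and 4698, 4509, 3627, 2498, 3915 and 2759 CPM in control 2N. Its groups overlapped through control 2N 4 and 6, and the log2 fold change was −0.40 (SE 0.17, unadjusted p = 0.0271). Of the other 4, Ripk4, Pigp, Mx2 and 1 identifier of Atp5o, none averaged above 2.64 CPM in either group. Sod1 and Dyrk1a, further genes of the segment, were at −0.12 and 0.17.

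Glial and vascular markers were followed as a check on what was captured. Oligodendrocyte markers were negative in 13 of 15 cases, with a median of −0.40 in 2N against 0.75 in Ts65Dn. Mag, a myelin glycoprotein, had 42.3 to 87.4 CPM in supplemented 2N and 88.8 to 140 CPM in control 2N without overlap (unadjusted p = 0.0733). Mbp, the main myelin protein, had 1443 ± 205 CPM in supplemented 2N and 1626 ± 232 CPM in control 2N. Among 15 astrocyte markers the median was −0.07, and 1 marker was lower at an unadjusted p under 0.05: Slc1a2, the glutamate transporter, at 931 ± 117 CPM in supplemented 2N and 1314 ± 235 CPM in control 2N. Astrocyte markers summed to 4401 to 4672 CPM in supplemented 2N and 4656 to 5768 CPM in control 2N. Vessel markers had a median of 0.28, with 11 of 15 positive and 4 negative. Acta2, the only one under an unadjusted p of 0.05 (6.67%, against 6.92% of all genes), had 72.5 ± 22.4 CPM in supplemented 2N and 25.3 ± 20.1 CPM in control 2N. The 2 defining vessel markers differed in direction. Median CPM in supplemented and control 2N was 11.3 and 19.8 for Cldn5, and 83.6 and 63.4 for Flt1. Medians were −0.14 for pan-neuronal, −0.23 for GABAergic, 0.24 for striatal, −0.27 for oligodendrocyte precursor, −0.29 for microglia, −1.14 for 3 blood and −0.83 for 4 ependyma markers. Leaving out 1 library moved the blood median between −5.13 (without supplemented 2N 2) and −0.28 (without control 2N 3), and the ependyma median between −1.86 (without supplemented 2N 2) and −0.49 (without control 2N 2). The part of these shifts in the other results was not tested.

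The genes called for the same diet in Ts65Dn mice were read in 2N as well, where other libraries entered both sides. Of 26 such genes (0.13% of those tested, 0.0501% higher and 0.0801% lower), 14 had the same sign in 2N. Of all 26, 3 had an unadjusted p under 0.05 in 2N, mt-Atp6, Chgb and Camk2a, against 6.92% of all genes in either direction. All 3 had the same sign as in Ts65Dn. The mt-Atp6 value rested on supplemented 2N 2 alone (21.8 CPM) and was −1.12 with its copy summed. The 16 genes lower in Ts65Dn were negative in 2N in 13 cases, against 53.2% of all genes. Camk2a, the kinase of excitatory synapses, had 143 ± 86.7 CPM in supplemented 2N and 295 ± 203 CPM in control 2N (log2 fold change −1.04, against −1.98 in Ts65Dn). Nptxr, a receptor of synaptic pentraxins, had −0.58 in 2N and −2.88 in Ts65Dn, with an adjusted p of 0.193 for the difference. Kif3a, a motor of axonal transport, averaged 256 CPM in supplemented 2N and 256 CPM in control 2N, and its value in Ts65Dn was −0.99 (adjusted p of the difference 0.289). Nptxr and Kif3a were picked after their values were seen. The 10 genes higher in Ts65Dn, among them mt-Nd1 and mt-Nd6, were positive in 2N in 1 case, mt-Atp6, whose counts lie mostly in its copy.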

How the data were processed

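The labels describe 24 libraries of laser-captured neurons, 1 per mouse, made with a low-input stranded total RNA kit and sequenced as single reads. Per the submitters' processing notes, reads were trimmed with Trimmomatic 0.39, aligned with STAR and quantified with RSEM, whose releases the notes do not state, and the builds GRCm39 and mm10 are named without their role. The deposited values are RSEM expected counts per gene, of which 93.5% were whole numbers, and TPM, scaled by the authors to transcript length and library total.

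Groups follow the titles, and replicate numbers follow accession order. Expected counts were rounded and genes kept with filterByExpr at a minimum count of 10, which left 19967 of 55414 identifiers, of which 52133 had a GENCODE M21 entry. All 24 libraries entered 1 fit with TMM factors and edgeR's quasi-likelihood test (edgeR 4.0.16, R 4.3.3), with 20 residual degrees of freedom, a biological coefficient of variation of 1.40, two-sided tests and Benjamini-Hochberg adjustment over all tested genes. Genes with adjusted p under 0.05 were called. SE and 95% intervals come from that fit. Levels are CPM. Depth was 4688258 to 13443438 counts per library. There are no molecular identifiers, and the error given is the spread between mice. The litters are not given, so mice were taken as independent, and p-values leave a shared dam out of account. Counts and TPM cannot separate near-identical copies, which were found with BLAST 2.17.0 (at least 97% identity over 150 bases).

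Named genes were, per direction, up to 15 called genes, filled up to 10 with the next smallest p among genes averaging at least 5 CPM, passing over unnamed models and pseudogenes. For each of 37 lists they were up to 4 called members or the 2 smallest p, and 15 fixed genes were added. The comparison, the members and the lists were chosen with earlier results of these data known. Alternatives were DESeq2 1.42.0, limma 3.58.1 (voom, and log2(TPM + 1)), other filters, scalings and covariates, leaving out libraries, and summed copies. Some genes that the rule names are not reported here. The test was tried on simulated counts with known changes.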

Additional observations from a re-analysis of the deposited data

Results flagged for a closer look

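The diet effect on Mir6236 differed between the genotypes, by 3.06 on the log2 scale (2N minus Ts65Dn, edgeR adjusted p = 0.000706). It was higher in 4 of 4 supplemented 2N libraries than in every control 2N library.

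Single libraries stood apart from the others of their diet group in 24 of 204 groups of values checked (11.8%), 16 in supplemented 2N and 8 in control 2N. The limit used is meant to flag about 1 in 20 groups of normally distributed values by chance, and that rate was not checked for values near 0, of which there are many here. In supplemented 2N 1 these were Ttr (8.21 CPM), Foxj1 (0.0714 CPM) and Slc5a7 (2.71 CPM). Supplemented 2N 2 stood apart for mt-Atp6 (21.8 CPM), Drd1 (1.04 CPM), Kcnj8 (0.311 CPM), Hba-a2 (0.933 CPM) and Ptprc (5.50 CPM). Supplemented 2N 3 did so for Camk2d (113 CPM) and Slc1a2 (1106 CPM). In supplemented 2N 4 the genes were Uhrf1 (6.00 CPM), Atp5o (0.0770 CPM), Grm2 (1.0 CPM), Cck (0.924 CPM), Ifngr2 (0.693 CPM) and Pemt (8.08 CPM).

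Among control 2N libraries, replicate 1 stood apart for Atp5o (15.9 CPM), and replicate 4 for Uhrf1 (0.107 CPM) and Vip (0.214 CPM). Replicate 5 did so for Chat (0.799 CPM), Rpl24 (0.133 CPM), Atg3 (3.20 CPM) and Psmd8 (3.46 CPM). Replicate 6 had mt-Atp8 at 327 CPM.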

How the results depend on the processing

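The count of 1 gene called in 2N was 0 with the robust fit and on log2(TPM + 1), 2 with 2N libraries alone, 3 with the mitochondrial rRNA percent as covariate, 7 with limma-voom, 33 without a filter and 212 with DESeq2; leaving out 1 library gave 0 to 2. The count of 1 for the difference between genotypes was 0 with the robust fit, the rRNA covariate, limma-voom and TPM, 5 without libraries under 1 CPM of Chat, 12 with the identifier prefix, 23 with the glial score, 125 without a filter and 268 with DESeq2; leaving out 1 library gave 1 to 3. The causes were not tested. Mir6236 stayed between 1.89 and 2.40 when libraries were left out, with adjusted p of 0.00134 to 0.0778.

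Leaving out 1 library, supplemented minus control 2N ran from −300774.2 to 1436165.8 for total counts, from −1498.17 to 76.8 for genes detected, and, in percentage points, from −3.26 to −1.75 for mitochondrial rRNA, from −1.04 to −0.663 for mitochondrial mRNA and from −1.37 to −0.897 with copies.

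Some log2 fold changes turned sign. With the identifier prefix these were Nr4a2 (1.01), Chat (−0.63) and Dnmt1 (−0.079), with the rRNA covariate Slc5a7 (−0.46) and Pemt (0.022), and with the glial score Pemt (0.17), mt-Nd3 (1.37) and mt-Nd4l (0.44). Without libraries under 1 CPM of Chat they were Pemt (0.28), Slc44a1 (−0.14) and Dnmt1 (−0.065), on the TPM scale Slc44a1 (−0.18) and Dnmt3a (−0.016), and with copies summed mt-Atp6 (−1.12). Leaving out 1 library, mt-Atp6 ran from 0 to 9.10, Atp5o from −7.65 to 1.32, Slc5a7 from −0.046 to 0.54, Pemt from −5.84 to 2.64, Slc44a1 from −0.26 to 0.31 and mt-Nd3 from −10.53 to 0.45. No paired analysis was possible because replicate numbers follow accession order and no label links animals across groups.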
